A study of Mus musculus with 13 samples.

Results

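The clustered protocadherins are cell adhesion proteins of the cadherin superfamily, encoded in the mouse by adjoining alpha, beta and gamma gene clusters on chromosome 18. Every row of the expression table on that chromosome whose name was a clustered isoform name was taken, which gave 24 rows of 25965: 1 for the alpha cluster, 22 for the beta cluster and 1 for the gamma cluster. Expression was measured by sequencing poly(A) RNA from primary X(Xist∆A)/X(PGK) mouse embryonic fibroblasts (MEFs), taken at E13.5, transduced with a retroviral hairpin and selected with puromycin after 24 h. Cells given a control hairpin or a Setdb1 hairpin were cultured without or with 5-azacytidine (5-aza), which made 4 groups of 3 libraries. The drug, which blocks the maintenance of DNA methylation, was given for 24 h from day 3 and all cells were harvested on day 7; its dose is not given in the sources used here. Replicates A and B of the control groups had the non-silencing hairpin and replicate 1 a luciferase hairpin; in the Setdb1 groups these were shSetdb1.4 and shSetdb1.6. By the study's account the Setdb1 hairpins went into Setdb1+/gt cells, heterozygous for a gene trap, and the non-silencing hairpin into Setdb1+/+ cells, with the genotype behind the luciferase hairpin not stated. Hairpin and genotype therefore cannot be told apart. The labels do not say whether the libraries of a group came from separate embryos, so p-values measure the spread between these libraries, which may be technical.

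Each isoform of the alpha and gamma clusters begins with its own variable first exon, which carries its own promoter and codes for the extracellular and transmembrane parts, and is spliced to constant exons shared by the whole cluster. Beta genes consist of a single coding exon and have no constant exons. In neurons a few isoforms are switched on per cell, with the choice tied to promoter DNA methylation and to loops held by CTCF and cohesin, and the resulting set of surface proteins lets a neuron recognise its own branches. Setdb1, the targeted gene, encodes an enzyme that methylates lysine 9 of histone H3, a mark of silenced chromatin. The comparisons asked how each cluster stood when Setdb1 was depleted, alone or with 5-aza.

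The table did not separate the isoforms within the alpha and gamma clusters. The alpha row, named Pcdhac1 (ENSMUSG00000007440), ran from 36930285 to 37187657 on chromosome 18 of mm10 and took in the first exons of all 14 annotated alpha isoform genes. The gamma row, named Pcdhga11 (ENSMUSG00000023036), ran from 37674335 to 37841873 and took in the first exons of 20 of the 22 gamma isoform genes; those of Pcdhga1 and Pcdhga2 lay outside it. The C-type isoforms, which resemble each other more than their cluster neighbours and are expressed in a less restricted way, had no value of their own. In what follows these rows are called the alpha row and the gamma row, and no isoform choice can be read from them. The 22 beta genes, from Pcdhb1 (start 37264998) to Pcdhb22 (end 37521419), had a row each. Reads shared with near-identical copies were a small risk: of the 100-base words of a member's transcript, the highest share also found in transcripts of other genes was 2.24%, for Pcdhb6, and it was 0% for the alpha row, the gamma row and Pcdhb22.

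The 12 libraries held 36.4 to 51.3 M reads in genes, and 1 read was worth 0.017 to 0.0239 RPM (reads scaled to a common library total). A row was tested if it reached 1 RPM in at least 3 of the 12 libraries, which 13 of the 24 rows did: the alpha row, 11 beta genes and the gamma row. Setdb1 itself was at 46.15 to 46.35 RPM in the control libraries and 12.12 to 15.36 RPM with Setdb1 hairpins, and at 42.69 to 43.95 and 10.45 to 14.54 RPM with 5-aza, so the labels held in every library. All 10 fibroblast markers passed the filter and summed to 25670 to 30785 RPM in control libraries without 5-aza, against 71.1 to 79.3 RPM for the neuronal markers. The fibroblast label rests on that sum and not on each marker, as Lum was at 0.383 to 0.971 RPM there. Of the 11 neuronal markers in the table, 5 also passed the filter, led by Tubb3 (39.49 to 67 RPM) and Stmn2 (16.23 to 28.37 RPM). Snap25 and Rbfox3 never exceeded 0.0415 and 0.0186 RPM.

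The gamma cluster supplied nearly all clustered protocadherin RNA in these fibroblasts. The gamma row averaged 670.1 RPM over the 12 libraries and ranked 148th of the 13134 genes tested, above 98.9% of them. The alpha row averaged 9.31 RPM and the 22 beta genes summed to 21.1 to 31.63 RPM in a library. In control cells the gamma row took 95.53% to 95.66% of clustered reads, the beta genes 3.32% to 3.43% and the alpha row 0.981% to 1.06%. On a per-length scale, the gamma row stood at 10.3 RPM per kb of annotated exon and the alpha row at 0.229 RPM per kb. These are means over all isoforms' exons, which in the alpha row spanned 40.76 kb and in the gamma row 65.07 kb.

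Within the beta cluster, a pair of genes stood above the rest on the per-length scale. Pcdhb22, the last gene of the cluster, averaged 1.86 RPM per kb and Pcdhb17 1.62 RPM per kb. Their ranges over the 12 libraries overlapped (1.42 to 2.39 and 1.28 to 1.90 RPM per kb). Next came Pcdhb19 at 0.45 RPM per kb, whose highest library (0.587 RPM per kb) lay below the lowest library of Pcdhb17. From Pcdhb19 down to Pcdhb10, at 0.0115 RPM per kb, each gene's range overlapped that of the next, so no further step in the order was larger than the spread between libraries. In RPM, Pcdhb22 averaged 5.72, Pcdhb17 5.31 and Pcdhb19 3.21, and these 3 genes held 53.7% of beta reads.

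Along the cluster, the reads were unevenly spread over stretches drawn after the levels were seen. The 8 genes from Pcdhb6 to Pcdhb13 averaged 0.0327 to 0.359 RPM, held 4.25% of beta reads, and none of them was tested. The 9 genes from Pcdhb14 to Pcdhb22 held 83% of beta reads and 8 of them were tested; Pcdhb15, at 19 to 35 reads per control library, was not. The 5 genes from Pcdhb1 to Pcdhb5 held 12.7%, with Pcdhb2, Pcdhb3 and Pcdhb5 tested and Pcdhb4 not. The stretches overlapped in level: Pcdhb4, at 0.0779 RPM per kb, lay below Pcdhb7 (0.102), and Pcdhb2 (0.378), Pcdhb3 (0.261) and Pcdhb5 (0.295) lay within the range of the last stretch. Pcdhb1 had 0 reads in every library, which allows up to 3 reads in 1 library taken alone (counting error only). The 12 libraries together allow fewer per library. Pcdhb10 never exceeded 3 reads and Pcdhb6 never exceeded 4, so neither could be compared between groups.

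**Figure D1:**
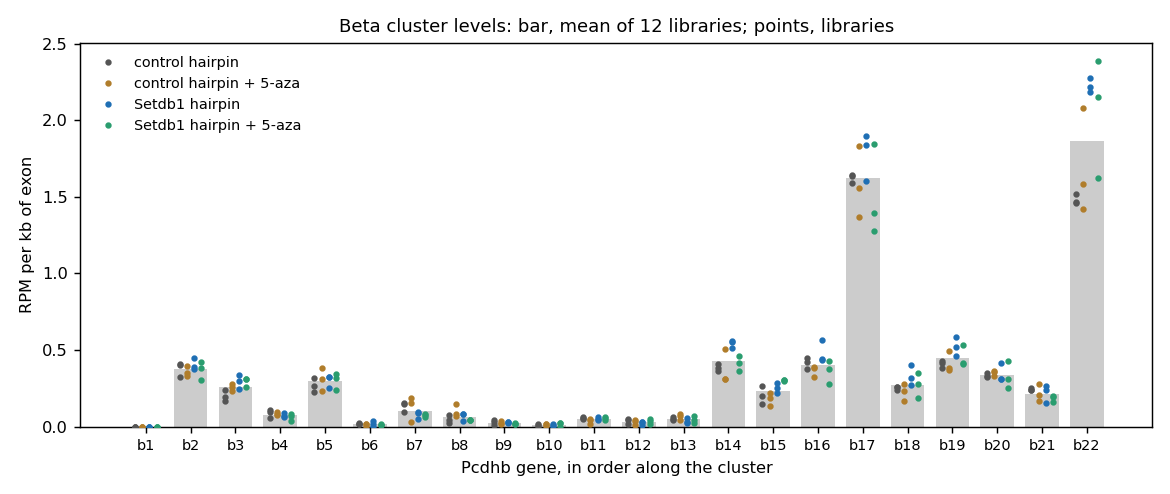
Level of each beta gene in RPM per kb, in order along the cluster, with the mean of the 12 libraries as a grey bar and each library as a point coloured by group. Pcdhb17 and Pcdhb22 stand above all others, and the genes from Pcdhb6 to Pcdhb13 lie near 0.

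Without 5-aza, the alpha row and 1 beta gene rose with Setdb1 hairpins, and the gamma row did not differ beyond its spread. Of the 13 members tested, 2 passed the threshold (adjusted p under 0.05), both higher, where 12.4% of all genes tested passed it and 9.01% were higher. The median log2 fold change of the 13 members was 0.20, against 0.03 over all genes. The estimate was above 0 for 11 of the 13, and for 60.1% of all genes; the count for the members was 9 with quantile normalization, and 10 with median centring or GC correction.

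The alpha row stood at 7.69, 7.47 and 7.21 RPM in control replicates A, B and 1, and at 11.72, 12.05 and 9.85 RPM in the Setdb1 hairpin replicates. All 3 Setdb1 hairpin libraries lay above all 3 controls. The means were 7.45 ± 0.242 and 11.21 ± 1.19 RPM (SD, n = 3), a 1.5-fold rise (log2 fold change 0.58, SE 0.11, adjusted p 0.00667). Both Setdb1 hairpins gave higher values than either control hairpin, with 11.89 RPM for shSetdb1.4 (n = 2) and 9.85 RPM for shSetdb1.6 (n = 1), against 7.58 RPM for the non-silencing (n = 2) and 7.21 RPM for the luciferase hairpin (n = 1). The call held in all 17 alternative settings (log2 fold change 0.52 to 0.67, adjusted p 0.000347 to 0.0303). Which alpha isoforms supplied the added reads was not resolved.

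**Figure D2:**
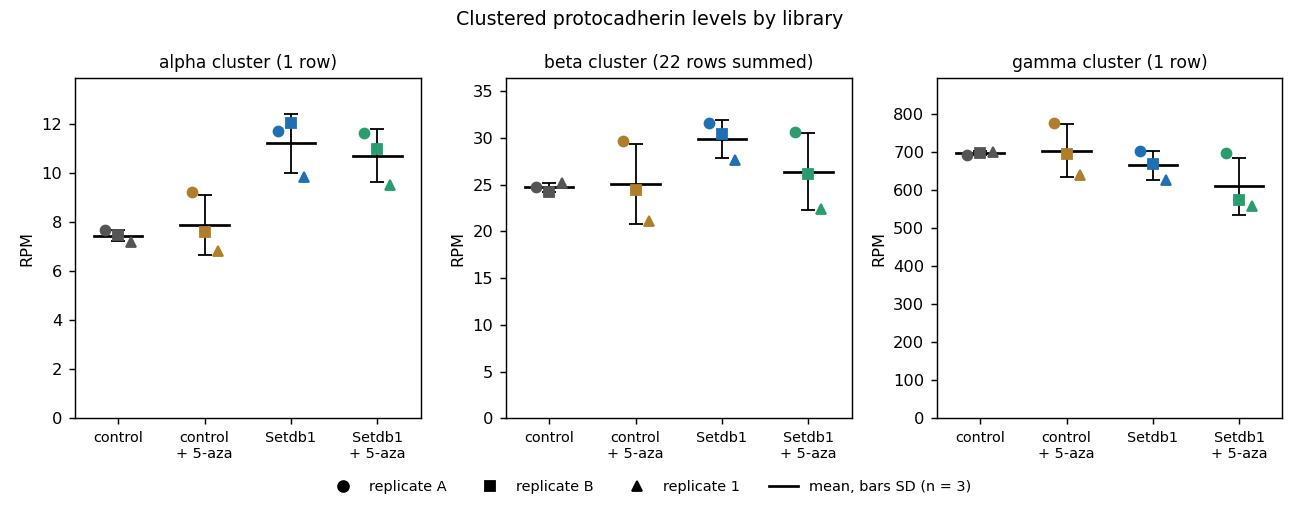
RPM of the alpha row, the sum of the 22 beta genes and the gamma row in each library, with the group mean as a line and the SD (n = 3) as bars. All Setdb1 hairpin libraries lie above all control libraries in the alpha panel, while the gamma groups overlap.

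Pcdhb22 was at 4.51, 4.66 and 4.48 RPM in control replicates A, B and 1 and at 6.69, 6.80 and 6.99 RPM in the Setdb1 hairpin replicates. The groups were far apart compared with their spread, at 4.55 ± 0.0957 and 6.83 ± 0.15 RPM (SD, n = 3). The rise was 1.5-fold (log2 fold change 0.59, SE 0.15, adjusted p 0.0224). This call was less firm than that of the alpha row. It was lost in 7 of the 17 alternative settings (adjusted p 0.0506 to 0.0849), of which 1 was quantile normalization. Others left out control replicate 1 (adjusted p 0.0728), control replicate A (0.0676), control replicate B (0.0517), Setdb1 hairpin replicate 1 (0.0849) or Setdb1 hairpin replicate B (0.0506). The log2 fold change was 0.57 to 0.60 with single libraries left out, and 0.5 to 0.6 over all 17 alternatives.

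The other beta genes did not pass the threshold. Pcdhb17, which lay above Pcdhb22 in every control library without 5-aza, was at 5.34, 5.20 and 5.38 RPM in control replicates A, B and 1 and at 6.02, 6.20 and 5.25 RPM with Setdb1 hairpins. Its groups overlapped (log2 fold change 0.13, SE 0.13, adjusted p 0.577), and the 95% interval of its difference ran from 0.893-fold to 1.34-fold. Pcdhb19 was at 2.95, 2.74 and 3.06 RPM in the controls and at 4.19, 3.69 and 3.27 RPM with Setdb1 hairpins. Its groups did not overlap, but its adjusted p of 0.136 missed the threshold (log2 fold change 0.34, SE 0.14).

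Besides Pcdhb22 and Pcdhb19, the groups of Pcdhb3, Pcdhb14 and Pcdhb18 were apart with the Setdb1 hairpin values higher. That made 5 of the 11 tested beta genes, and 5 of all 22. The untested Pcdhb7 was apart in the other direction. Over all genes tested 24% were apart higher and 10.4% apart lower. These counts are in part set by the filter, since Pcdhb3 reached 1 RPM in no control library without 5-aza and passed through other groups. Pcdhb3 and Pcdhb14 are named here, and Pcdhb16 further on, after their values were seen. Pcdhb3 was at 0.725, 0.626 and 0.914 RPM in control replicates A, B and 1 and at 1.28, 1.12 and 0.93 RPM with Setdb1 hairpins (log2 ratio 0.56, SE 0.17, adjusted p 0.0537). Its highest control library and lowest Setdb1 hairpin library nearly met, and without control replicate 1 it passed the threshold (0.71, adjusted p 0.0359). Pcdhb14 was at 1.33, 1.25 and 1.403 RPM in the controls and 1.89, 1.92 and 1.76 RPM with Setdb1 hairpins (0.49, SE 0.17, adjusted p 0.0905).

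The remaining 6 tested beta genes had log2 fold changes from -0.19 (Pcdhb21) to 0.38 (Pcdhb18). At 50.4 to 106 reads a library on average, they carried a counting error of 9.71% to 14.1% per library. The 95% interval of Pcdhb20, whose estimate was closest to 0 (0.03), still ran from 0.774-fold to 1.35-fold. Among the 11 untested beta genes, Pcdhb7 alone had groups that did not overlap. It lay at 0.34 to 0.539 RPM (16 to 29 reads) in the controls and 0.187 to 0.337 RPM (11 to 16 reads) with Setdb1 hairpins. Over all 22 beta genes the mean was higher with Setdb1 hairpins for 12, lower for 9, and 1 had no read. Summed, the 22 genes were at 24.25 to 25.16 RPM in control and 27.62 to 31.63 RPM in Setdb1 hairpin libraries, so these groups were apart. With 5-aza the sums overlapped, at 21.1 to 29.67 and 22.4 to 30.67 RPM. The sum, of which Pcdhb22, Pcdhb17 and Pcdhb19 made up 53.7% of reads, was not tested.

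The gamma row was at 694.0, 699.0 and 702.3 RPM in control replicates A, B and 1 and at 703.0, 670.6 and 626.4 RPM in the Setdb1 hairpin replicates. Replicate A with the Setdb1 hairpin lay above all controls and the other two lay below them, so the groups overlapped. The estimate was a log2 fold change of -0.07 (SE 0.09, adjusted p 0.653), with a 95% interval from 0.838-fold to 1.09-fold. The interval of the alpha row, 1.26-fold to 1.78-fold, did not overlap it.

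**Figure D3:**
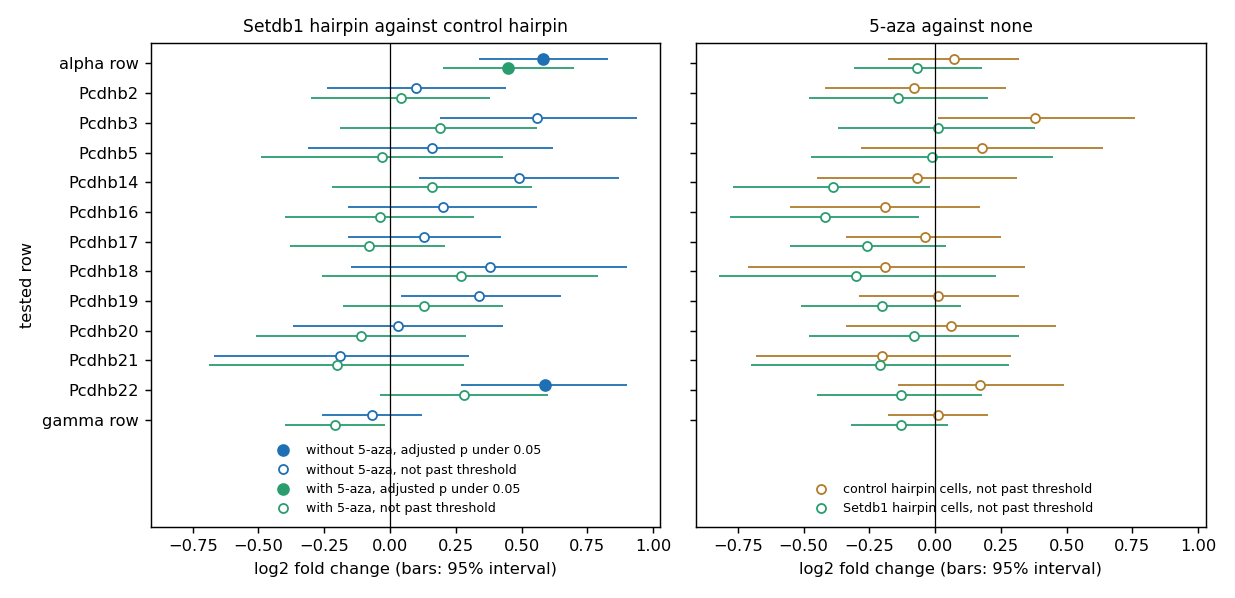
Log2 fold changes of the 13 tested rows with 95% intervals, for Setdb1 hairpin against control hairpin on the left and for 5-aza against none on the right. Filled points passed an adjusted p of 0.05: the alpha row without and with 5-aza and Pcdhb22 without it.

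With 5-aza, the alpha row again rose with Setdb1 hairpins and was the only member to pass the threshold, 1 of 13 where 19.9% of all genes tested passed and 14.5% were higher. It was at 9.24, 7.58 and 6.82 RPM in control replicates A, B and 1 with 5-aza and at 11.62, 10.97 and 9.53 RPM in the Setdb1 hairpin replicates with 5-aza. The groups did not overlap, though the lowest Setdb1 hairpin library lay close to the highest control. The means were 7.88 ± 1.24 and 10.71 ± 1.07 RPM (SD, n = 3), a 1.37-fold difference (log2 fold change 0.45, SE 0.11, adjusted p 0.0173). The call was lost without control replicate B (adjusted p 0.0627), without Setdb1 hairpin replicate B (0.0641), with only these groups in the fit (0.058) and with quantile normalization (0.052). Over the 17 alternatives the log2 fold change was 0.35 to 0.57.

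Pcdhb22 was more scattered with 5-aza. It was at 6.37, 4.86 and 4.35 RPM in control replicates A, B and 1 and at 7.32, 6.59 and 4.99 RPM with Setdb1 hairpins, so the groups overlapped (log2 ratio 0.28, SE 0.15, adjusted p 0.193). No tested beta gene had groups apart in this comparison, where 24.6% of all genes were apart higher. The untested Pcdhb15 did, at 0.373 to 0.614 RPM (18 to 33 reads) in control and 0.836 to 0.86 RPM (42 to 44 reads) in Setdb1 hairpin libraries, and so did the untested Pcdhb8 in the other direction, at 0.166 to 0.344 and 0.0959 to 0.1 RPM. The median over the 13 members was 0.04, against 0.05 over all genes. Of the 13 estimates 7 were above 0, where 63.3% of all genes were.

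The gamma row with 5-aza was at 778.2, 697.0 and 640.1 RPM in control replicates A, B and 1 and at 697.7, 574.9 and 558.6 RPM in the Setdb1 hairpin replicates. Setdb1 hairpin replicates B and 1 lay below all controls, and replicate A lay among them, so the groups overlapped. In limma this difference did not pass, at -0.21 on the log2 scale (SE 0.09, adjusted p 0.102). It passed the threshold when control replicate 1 (-0.28, adjusted p 0.0413) or Setdb1 hairpin replicate A (-0.31, adjusted p 0.0104) was left out. With all libraries kept, it also passed with a replicate block by letter, so passing depended on the setting.

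**Figure D4:**
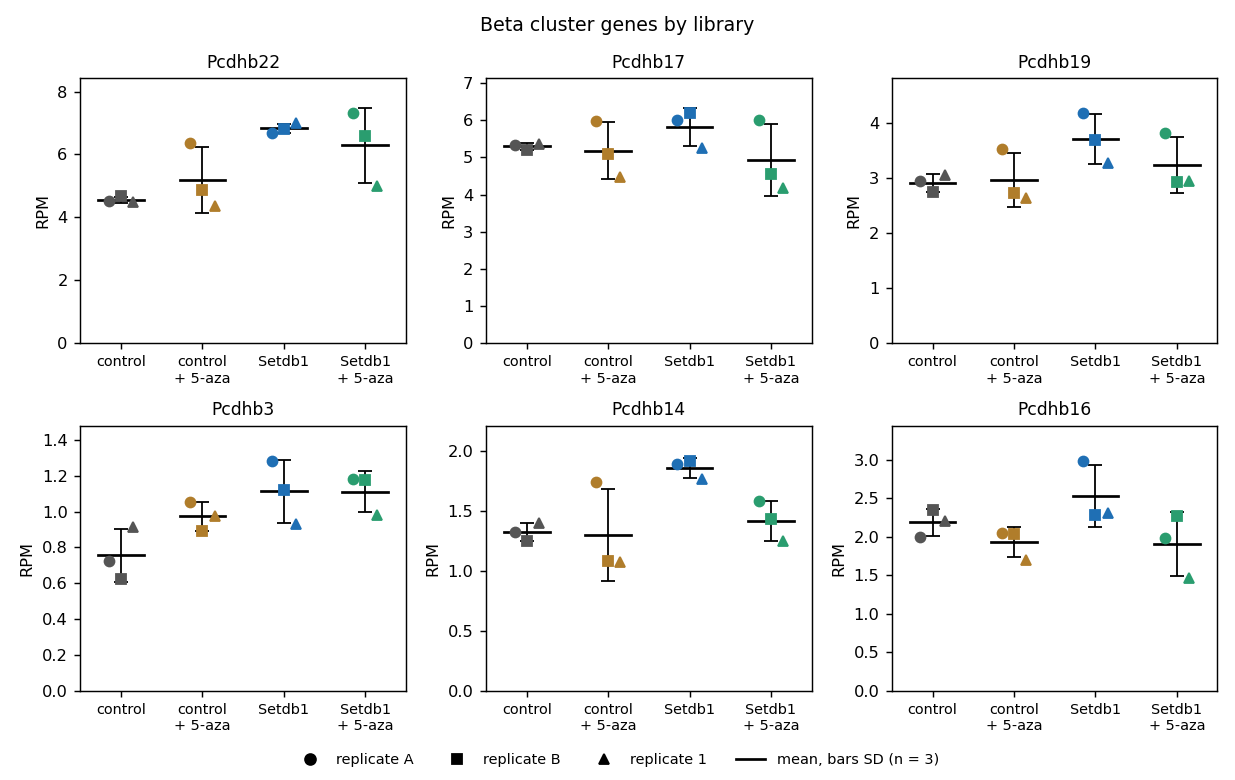
RPM of 6 beta genes in each library, with the group mean as a line and the SD (n = 3) as bars. The Pcdhb22 values of the control and Setdb1 hairpin groups without 5-aza are tight and apart (4.48 to 4.66 and 6.69 to 6.99 RPM), and the spread is wider in both 5-aza groups.

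The balance among the clusters, taken within each library, separated the hairpins. The alpha row took 0.981% to 1.13% of clustered reads in the 6 control libraries and 1.48% to 1.79% in the 6 Setdb1 hairpin libraries. The 22 beta genes took 3.16% to 3.63% and 3.79% to 4.27%. These shares do not depend on the scaling between libraries, and they compare the alpha and beta rows chiefly with the gamma row, which took 93.94% or more of clustered reads in every library. They are given as a description, without a test.

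**Figure D5:**
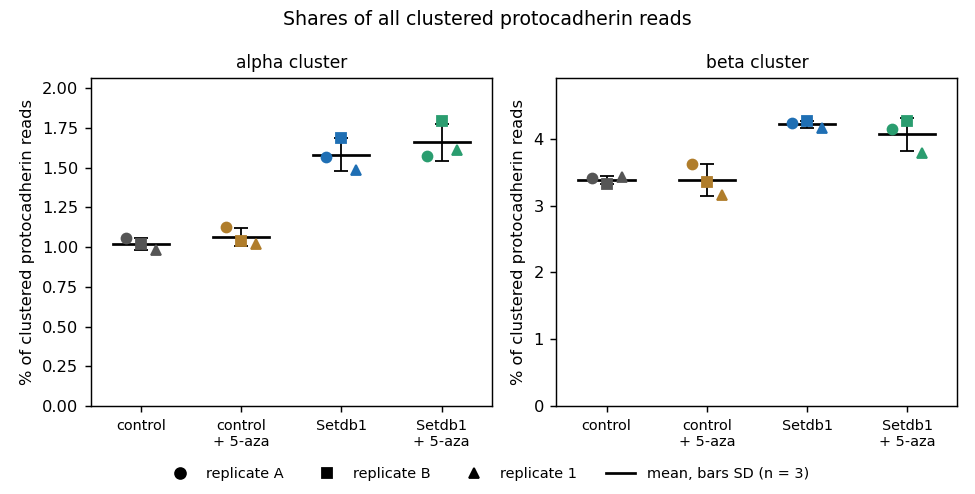
Share of all clustered protocadherin reads in each library taken by the alpha row (left) and by the 22 beta genes (right), in percent, with the group mean as a line and the SD (n = 3) as bars. The 6 Setdb1 hairpin libraries lie above the 6 control libraries in both panels.

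In the fit by group alone, 5-aza changed no member past the threshold with either hairpin. In control hairpin cells 0 of 13 passed, where 18.8% of all genes tested did, and 1 (Pcdhb3, log2 fold change 0.38) had an unadjusted p under 0.05. In Setdb1 hairpin cells 0 of 13 passed, where 28.9% of all genes did and 7.51% were lower, and 2 had an unadjusted p under 0.05. The Setdb1 hairpin cultures were counted as paired from their names and correlated residuals, which the labels do not state. On that reading the fit with the culture as a block also bears on the count. It called 1 member (Pcdhb16, lower), and 2 with GC correction as well (Pcdhb16 and the gamma row, both lower). By voom on the recovered reads the count was 0 with either hairpin. The 5-aza comparisons use the same libraries as the hairpin comparisons above, so their values are not independent of them.

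In control cells the 5-aza libraries spread to both sides of the untreated ones. These replicates were not counted as paired, and the ratios are a description. With 5-aza the alpha row was 1.2 times its untreated level in replicate A, 1.02 times in B and 0.947 times in 1. The summed beta genes gave 1.2, 1.01 and 0.839 times, and the gamma row 1.12, 0.997 and 0.911 times. In both 5-aza groups replicate A was the highest and replicate 1 the lowest library in all 3 clusters.

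Setdb1 hairpin cells were counted as paired by culture. Their level with 5-aza was below that without it in all 3 cultures and all 3 clusters. The ratios in cultures A, B and 1 were 0.991, 0.91 and 0.968 for the alpha row. They were 0.97, 0.859 and 0.811 for the summed beta genes, and 0.992, 0.857 and 0.892 for the gamma row. For single rows, 12 of the 13 estimates were below 0 (13 with median centring, quantile normalization or GC correction), with a median of -0.14 against 0.06 over all genes. Over all genes 62.9% of the estimates were above 0. The intervals were wide: that of the alpha row ran from 0.805-fold to 1.14-fold and that of the gamma row from 0.801-fold to 1.04-fold.

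Pcdhb14 and Pcdhb16 were the tested members whose groups did not overlap in that comparison, both lower with 5-aza, where 12.2% of all genes were apart lower. The untested Pcdhb15 was apart in the other direction, at 0.62 to 0.8 RPM (26 to 41 reads) without 5-aza and 0.836 to 0.86 RPM (42 to 44 reads) with it. Pcdhb16 was at 2.99, 2.28 and 2.31 RPM in Setdb1 hairpin replicates A, B and 1 and at 1.98, 2.27 and 1.46 RPM with 5-aza. Replicate B hardly differed, and the other two were lower (log2 fold change -0.42, SE 0.17, adjusted p 0.0746). With the culture as a block it passed the threshold (-0.42, adjusted p 0.0362), and without Setdb1 hairpin replicate B with 5-aza it did so too (-0.56, adjusted p 0.0452). Pcdhb14 fell short in both (adjusted p 0.108 without the block), at 1.89, 1.92 and 1.76 RPM against 1.58, 1.43 and 1.25 RPM. Without Setdb1 hairpin replicate A with 5-aza, Pcdhb17 and the gamma row passed the threshold, both lower.

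The interaction of hairpin and 5-aza, which asks whether the effect of the Setdb1 hairpin differed with the drug, was not called for any member. All 13 estimates were below 0 (-0.38 to -0.01 on the log2 scale), where 57.4% of all genes were above 0. None had an unadjusted p under 0.05, and the lowest adjusted p was 0.794, where 0.388% of all genes were called. That Pcdhb22 passed the threshold without 5-aza and not with it is thus not shown to be a difference (interaction -0.31, SE 0.21, adjusted p 0.794). For the alpha row the interaction was -0.13 (SE 0.16, adjusted p 0.831).

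Genes around and behind these clusters were counted from lists. Of 14 tested factors known for clustered protocadherin promoters and loops, 6 rose with Setdb1 hairpins without 5-aza and 7 with it, and none fell, where 9.01% and 14.5% of all genes rose. Among them were Ctcf, which binds the promoters and enhancers (0.18, SE 0.03, adjusted p 0.00747 without 5-aza), the cohesin subunit Rad21 (0.22, SE 0.04, adjusted p 0.00384) and Smchd1, a chromatin protein that silences protocadherin clusters (0.24, SE 0.04, adjusted p 0.00498). Ctcf and Smchd1 are named for their known role, after their values were seen. These shifts were small, and with 5-aza the count was 3 under median centring, quantile normalization or GC correction. With 5-aza against none, 6 of the 14 fell in control cells and 7 in Setdb1 hairpin cells, where 5.34% and 7.51% of all genes fell. Under those other scalings 7 to 9 fell in control cells and 10 to 11 in Setdb1 hairpin cells. Of 9 genes of the DNA methylation machinery, 2 rose with Setdb1 hairpins without 5-aza: the maintenance methyltransferase Dnmt1 (0.36, SE 0.07, adjusted p 0.00491) and its recruiter Uhrf1 (0.43, SE 0.10, adjusted p 0.0194). With 5-aza 3 of the 9 rose with Setdb1 hairpins. For 5-aza against none, 3 of the 9 fell in control cells and 3 in Setdb1 hairpin cells, against the same 5.34% and 7.51% of all genes. Under the other scalings 3 fell in control cells and 5 to 6 in Setdb1 hairpin cells.

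Other adhesion genes were counted next. For the Setdb1 hairpin comparisons, 12.4% of all genes tested passed without 5-aza and 19.9% with it, in either direction. Of 8 tested non-clustered protocadherins, which lie elsewhere in the genome or beside the clusters, 1 rose and 1 fell with Setdb1 hairpins in each comparison. Pcdh10, a protocadherin with roles in axon growth, was at 2.29 to 3.65 RPM in control and 5.63 to 6.99 RPM in Setdb1 hairpin libraries (log2 ratio 1.07, SE 0.16, adjusted p 0.0011), a larger estimate than that of any clustered member. Pcdh18 was at 162 to 174.9 RPM in control and 131.8 to 143.8 RPM in Setdb1 hairpin libraries (-0.29, SE 0.06, adjusted p 0.0061). Of 9 tested cadherins, mostly classical and type II ones, only Cdh13 changed without 5-aza (-0.56, SE 0.08, adjusted p 0.00105). Cdh13 lacks a cytoplasmic domain and belongs to neither class. With 5-aza against none, 3 of these 9 cadherins fell in control cells and 6 fell and 1 rose in Setdb1 hairpin cells. Of the 8 non-clustered protocadherins, 4 fell and 1 rose in control cells, and 2 fell and 1 rose in Setdb1 hairpin cells. Over all genes tested, 5.34% fell with 5-aza in control cells and 7.51% in Setdb1 hairpin cells. In either direction 18.8% and 28.9% passed. Of 15 tested signalling partners of protocadherins, 1 rose and 2 fell without 5-aza, among them the kinase gene Fyn (-0.16, SE 0.04, adjusted p 0.024), and the call of the rise was lost under each of the 3 other scalings. Of 8 tested genes of protocadherin cleavage, 0 passed the threshold with Setdb1 hairpins without 5-aza, and 1 did, lower, under each of the other scalings. With 5-aza 2 were lower with Setdb1 hairpins. One of these was Psenen, a gamma-secretase subunit, which rose with 5-aza in control cells from 1.13 to 3.15 RPM (log2 ratio 1.48, SE 0.11, adjusted p 6.73e-06) and went from 1.2 to 1.44 RPM in Setdb1 hairpin cells (0.25, SE 0.11, adjusted p 0.0888). Its interaction was -1.22 (SE 0.15, adjusted p 0.00274).

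Of 27 tested rows within 500 kb of the clusters, 2 rose with Setdb1 hairpins without 5-aza and none fell, a share (7.41%) no higher than the 9.01% of all genes. With 5-aza 4 rose and 1 fell, where 14.5% of all genes rose and 19.9% passed in either direction. One of the first was 3222401L13Rik, between the beta genes and the gamma row, at 2.92 to 3.19 RPM in control and 4.44 to 5.26 RPM in Setdb1 hairpin libraries (log2 ratio 0.70, SE 0.09, adjusted p 0.000484). The other was Arap3, beyond the gamma row (0.73, SE 0.16, adjusted p 0.0119). Gm10545 lies inside the alpha interval on the opposite strand, with 9 to 34 reads per library. Whether counting used strand is not given in the sources used here, so its reads and those of the alpha row may not be separated.

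Markers of other cell types also moved with the hairpin. The summed neuronal markers (11 of 12 in the table, 5 tested) were at 71.1 to 79.3 RPM in control and 88.8 to 93.2 RPM in Setdb1 hairpin libraries without 5-aza, where Gap43 and Tubb3 rose and Elavl4 fell; the call of Tubb3 was lost under median centring and quantile normalization. The epithelial markers (6 in the table, 2 tested) summed to 2.74 to 3.27 and 9.68 to 10.6 RPM, nearly all of it Krt18, which rose; Krt8, at 0.0177 to 0.0216 and 0.239 to 0.463 RPM, reached 1 RPM only in Setdb1 hairpin cells with 5-aza. The glial markers (8 in the table, 2 tested) summed to 5.04 to 6.34 and 7.15 to 7.82 RPM, and the call of Mbp among them (higher) was lost under each of the 3 other scalings. The skeletal muscle markers (5 in the table, 2 tested, of which Des rose) summed to 191 to 205 and 207 to 236 RPM. The endothelial (2 tested) and macrophage (2 tested) lists had no call with the hairpin, and of the 10 fibroblast markers 1 (Thy1) fell, with 5-aza, where under quantile normalization that call was lost and 1 (Vim) rose. Their part in the rise of the alpha row and Pcdhb22 was not tested. In bulk RNA, more cells expressing a gene and more RNA per cell cannot be told apart.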

How the data were processed

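The deposited table held log2 values, which the authors named log2 RPM, for 25965 gene rows in 13 libraries (100-bp single-end reads, TruSeq RNA). Per the labels' processing notes, CASAVA 1.4 and mm10 were used; the aligner and counter of this table are not given in the sources used here. In every library 100% of low values were whole multiples of 1 read (within 0.02 read), from which reads were recovered. Implied totals were 41.9 to 58.8 M reads.

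The 13134 genes that reached 1 RPM in 3 or more of the 12 hairpin libraries entered a limma fit (version 3.58.1, R 4.3.3; moderated with a trend; group only) with 5 contrasts, two-sided, with Benjamini-Hochberg adjustment over all genes and a threshold of 0.05. RPM errors are SD. Levels per length used the row's length, or the GENCODE M21 exon union for the alpha and gamma rows. The fit was tested on simulated reads of independent libraries, with 1 common spread for all genes. That setting lacks the correlated residuals given below, so the test does not measure their effect. Python 3.11.15 with pandas 2.3.3, numpy 2.4.6 and matplotlib 3.10.9 made the tables and figures.

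Named are members that passed the threshold, the 3 most abundant per cluster, and at most 4 genes per list by smallest p. The members and lists were chosen with earlier results of these data known. Residuals of libraries sharing a culture name correlated across genes at 0.4719, 0.6342 and 0.4127 in Setdb1 hairpin cells, counted as paired, and at 0.5863, 0.1487 and 0.0999 in control cells, which were not. Control hairpin replicate A with 5-aza correlated at 0.6678 and 0.6858 with Setdb1 hairpin replicate A without and with 5-aza. Since these have different culture names, the correlations do not establish the pairing. The library given 5-aza whose label names no hairpin entered no comparison. Alternatives were the pseudocount, filters, scaling, blocks, left-out libraries and GC correction; voom on recovered reads was chosen after seeing the data.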

Additional observations from a re-analysis of the deposited data

Results flagged for a closer look

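The 5-aza library without a named hairpin, which the labels put in no group and no comparison used, held 20.4 M reads in all. Its library name holds PGK, as does the name of the sample in which the study's methods defined strain variants, and its cells cannot be told apart from its treatment. Its alpha row was at 11.4 RPM, above the highest of the 6 control hairpin libraries (9.24 RPM). Its summed beta genes were at 32.3 RPM, above the highest control hairpin library (29.7 RPM). Its gamma row, at 735 RPM, lay within the control range of 640.1 to 778.2 RPM. Of the 24 rows, 10 were higher there than in all 12 hairpin libraries and 0 were lower. The share of all genes that were higher there was not counted, so this is no result about the members. Some of the 10 rested on few reads in that library, as Pcdhb9 (5 reads), Pcdhb11 (8 reads) and Pcdhb4 (9 reads). The library has no replicate, so none of these differences was tested.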

How the results depend on the processing

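The number of members past the threshold for Setdb1 against control hairpins without 5-aza was 2, and it was 1 with quantile normalization (the alpha row), 4 with a replicate block by letter (adding Pcdhb3 and Pcdhb19) and 1 to 2 with single libraries left out. With 5-aza it was 1, and it was 0 with quantile normalization, 2 with the replicate block by letter (adding the gamma row, lower), 0 with only the groups compared and 0 to 2 with single libraries left out. For 5-aza in Setdb1 hairpin cells it was 0, and it was 2 with quantile normalization (Pcdhb14 and Pcdhb16), 1 with the replicate block by culture (Pcdhb16), 2 with GC-corrected values and that block (Pcdhb16 and the gamma row) and 0 to 2 with single libraries left out. It was 0 in all 18 alternatives for 5-aza in control cells and in all 24 for the interaction, with 0 to 0 over the left-out libraries in each. Between libraries that share a letter across hairpins, residual correlations across genes ran from -0.4703 to 0.6858. The highest were those of control hairpin replicate A with 5-aza (0.6678 and 0.6858), while all those of replicate B were below 0. Whether the letters pair libraries across hairpins is therefore not settled. The cause of these moves was not tested. No called value of a member changed direction; uncalled estimates near 0 did change sign, as for the alpha row with 5-aza in control cells (0.07, and -0.05 without control hairpin replicate A with 5-aza). Testing all 24 rows, with no filter on low values, left the counts at 2, 1, 0 and 0. An edgeR fit was planned and not run, since the deposited unit is log2, and leaving out the lowest member of a cluster was not possible where a cluster had 1 row. Depth limits the 11 untested beta genes, which held at most 44 reads in any library.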
